A study of Bos taurus with 47 samples.

Results

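MYH7, MYH2 and MYH1 encode the myosin heavy chains that drive contraction in the fibres of mature cattle muscle. The 3 genes were chosen by identifier out of 27607 listed: ENSBTAG00000009703 for MYH7, ENSBTAG00000007090 for MYH2 and ENSBTAG00000018204 for MYH1. The symbols came with the choice of identifiers and were not checked against an annotation, since the files hold no gene names. Markers of other cell types could not be looked up for the same reason.

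Myosin heavy chain is the motor of the thick filament, and the form that a fibre makes sets much of its speed of shortening and its fatigue resistance. MYH7 is the slow chain of type 1 fibres, which is also a main chain of the heart ventricle. MYH2 is the chain of fast, oxidative type 2A fibres, and MYH1 that of faster, more glycolytic type 2X fibres. Developing muscle first makes embryonic and neonatal chains, which the adult fast chains replace as fibres mature. MYH2 and MYH1 lie side by side in a cluster of closely similar genes, while MYH7 lies elsewhere. In the RefSeq gene order of the ARS-UCD2.0 assembly, and likewise in the row order of the fetal table, MYH2 directly followed MYH1. Reads that match both could be divided between the pair by the authors' counting, and how far they were was not tested.

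RNA of Longissimus muscle, the long muscle of the back, was sequenced in 47 libraries of Bos taurus. Crossbred Angus heifers (F0) put on 0.28 kg per day (low gain, LG) or 0.79 kg per day (moderate gain, MG) for the first 84 days of pregnancy, and were kept together from then on. Their F1 heifers gave Longissimus thoracis at birth, before suckling (8 LG and 8 MG libraries), and muscle at slaughter (8 LG and 7 MG by the sample labels, against 7 and 8 in the protocol text). F2 fetuses of day 84 gave Longissimus dorsi (8 LG and 8 MG), so for them the treatment was that of the granddam. No genotype or age at slaughter was given beyond this, and all groups shared the crossbred Angus origin of the F0 heifers. Total counts ran from 13308433 to 32547565 per library. Levels are given in CPM, the count scaled to a common library size after TMM scaling, and errors are the SD between libraries. Stage coincided with the deposited table, the time of collection and the muscle as named above. For the fetuses it coincided with generation too, so none of these can be told apart. In bulk tissue, fewer fibres of a type and less message per fibre cannot be told apart either.

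The first comparison set the 3 stages against each other. All 3 genes rose from fetus to birth and again from birth to slaughter, the slow chain least and the fast 2X chain most. They were not alone, since 81.9% of the 14820 genes tested passed the threshold between birth and fetus, 70.2% of 13369 between slaughter and birth, and 83.4% of 14960 between slaughter and fetus (edgeR's quasi-likelihood test, adjusted p under 0.05). A higher level at the later stage was called for 37.9%, 37% and 38.4% of genes in those comparisons. For how many of all genes the libraries of different stages did not overlap was not counted.

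MYH7, the slow chain, was at 62.1 CPM in the lowest fetal library, with a median of 448 and a highest value of 2062. At birth it was between 6860 and 17103 CPM with a median of 9645. At slaughter it ran from 11610 to 29573 CPM with a median of 17344. Every library at birth was above every fetal library, while birth and slaughter overlapped. The mean level was 583 ± 559 CPM in fetuses (n = 16), 10373 ± 2400 in newborns (n = 16) and 19447 ± 5650 in heifers at slaughter (n = 15). On the log2 scale MYH7 rose by 4.26 (SE 0.35) from fetus to birth, a 19.2-fold change with a 95% interval of 11.7 to 31.4, with an adjusted p of 3.39e-13 in edgeR. From birth to slaughter it rose by 0.92 (SE 0.14), or 1.896-fold (1.57 to 2.30), with an adjusted p of 3.96e-07 in edgeR.

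MYH2, the fast 2A chain, was between 7.91 and 167 CPM in fetuses with a median of 22.2. At birth it ran from 1094 to 15438 CPM with a median of 4940, and at slaughter from 11484 to 30678 with a median of 24635. Fetal and birth levels did not overlap, and the lowest libraries at slaughter, LG 07 at 11484 and MG 20 at 14713 CPM, lay within the range at birth. The mean was 36.9 ± 40.7 CPM in fetuses (n = 16), 6324 ± 4814 at birth (n = 16) and 23907 ± 5701 in slaughtered heifers (n = 15). The log2 rise from fetus to birth was 7.39 (SE 0.59), or 167-fold (73.2 to 383), with an adjusted p of 1.39e-13 in edgeR. From birth to slaughter it was 1.96 (SE 0.33), or 3.89-fold (2.42 to 6.25), with an adjusted p of 5.96e-06 in edgeR.

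MYH1, the fast 2X chain, was close to undetected in part of the fetal libraries. Its fetal counts ran from 1 in LG 41 and 3 in MG 23 to 577 in MG 20, that is from 0.0388 to 19.04 CPM with a median of 0.727. At birth the range was 1201 to 21421 CPM with a median of 6963, and at slaughter 30428 to 60536 with a median of 43558. No 2 stages overlapped for this gene. Mean levels were 2.63 ± 4.67 CPM in fetuses (n = 16), 7677 ± 6344 at birth (n = 16) and 45877 ± 10113 in heifers at slaughter (n = 15).

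MYH1 rose by 11.47 (SE 0.86) on the log2 scale from fetus to birth, with an adjusted p of 2.61e-14 in edgeR. The fold, 2840 with an interval of 851 to 9482, rests on fetal counts of a few reads in several libraries, and without fetal MG 20 the log2 rise was 12.36. From birth to slaughter MYH1 rose by 2.64 (SE 0.35), or 6.23-fold (3.78 to 10.3), with an adjusted p of 1.04e-07 in edgeR. The same library also moved the fetal comparison of MYH2, whose log2 rise to birth was 7.86 without it.

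**Figure D1:**
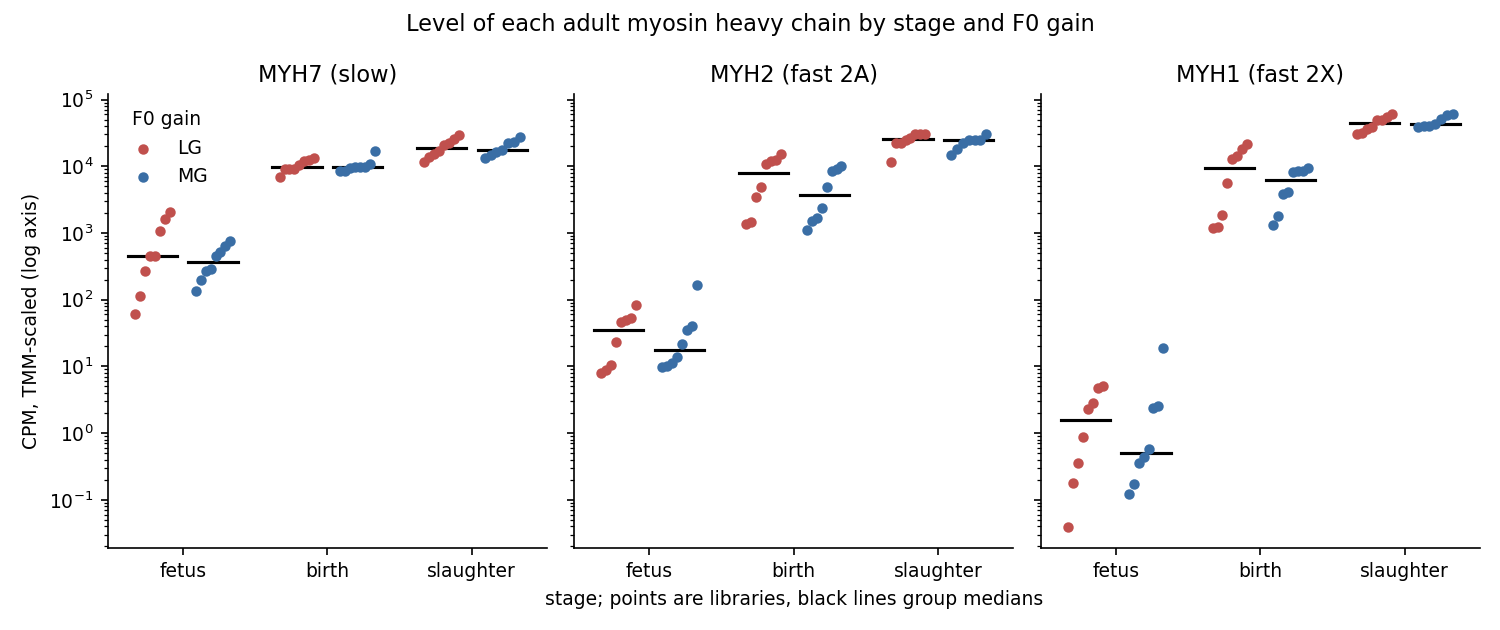
Level of MYH7, MYH2 and MYH1 (1 panel each) in CPM on a log axis, by stage, with LG libraries in red and MG libraries in blue; each point is a library and black lines are group medians. Medians climb at each stage for all 3 genes, and the step from fetus to birth is widest for MYH1 (0.727 to 6963 CPM) and narrowest for MYH7 (448 to 9645 CPM).

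Between fetus and slaughter the log2 rises were 5.20 (SE 0.38) for MYH7, 9.35 (SE 0.51) for MYH2 and 14.12 (SE 0.81) for MYH1. Their adjusted p-values in edgeR were 4.07e-14, 1.62e-17 and 6.42e-17. The intervals did not overlap, at 4.41 to 5.98, 8.31 to 10.40 and 12.46 to 15.77. This comparison uses the same libraries as the other stage comparisons. Over the alternatives run the rises were 4.13 to 5.63, 8.27 to 10.20 and 13.01 to 16.01, and without fetal MG 20 those of MYH2 and MYH1 were 9.87 and 15.06. Among all genes tested the median log2 change was -0.12 from fetus to birth and 0.05 from birth to slaughter.

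Scaling sets the zero of these changes. With library totals alone in place of TMM, the median gene moved by -1.004 from fetus to birth, and the 3 rises became 3.31, 6.37 and 10.44. The split of called genes then went from 5619 higher and 6522 lower to 2734 higher and 9331 lower. From birth to slaughter the median gene moved by -0.05 with totals alone, and the rises were 0.82, 1.91 and 2.58. All 3 genes kept their direction and their call with totals alone, with DESeq2 size factors and with scaling that left the 3 genes out.

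Together the 3 messages came to occupy a large part of the muscle library. Their summed counts were 0.0981% ± 0.0908 of all counts in fetuses (n = 16), 2.01% ± 0.878 at birth (n = 16) and 7.05% ± 0.939 in heifers at slaughter (n = 15). The lowest library at slaughter, MG 20 at 5.06%, was above the highest at birth, LG 28 at 3.33%, and fetal values ended at 0.301%. Each step had a two-sided permutation p of 1e-05, the smallest that 100000 resamples can give. Ranked by mean log2 CPM among all 27607 listed genes, MYH7 was at place 14 at birth, MYH1 at 32 and MYH2 at 37. At slaughter MYH1 was at place 2, MYH2 at 5 and MYH7 at 7. In fetuses MYH7 was at place 189, MYH2 at 4389 and MYH1 at 12386. These ranks are not per transcript length.

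The share of each gene in the counts of the 3 does not depend on scaling. It is a share of reads and not of molecules, because transcript lengths were not used. MYH7 held 92.6% ± 5.13 of the 3 in fetuses (n = 16), 50.7% ± 20.0 at birth (n = 16) and 22.01% ± 6.59 at slaughter (n = 15). MYH1 went the other way, from 0.383% ± 0.563 to 26.7% ± 12.6 and then 51.2% ± 8.33. MYH2 went from 7.00% ± 4.66 to 22.5% ± 9.85 and 26.8% ± 5.72. The slow chain was thus the main one of the 3 by reads in all 16 fetal libraries, where its lowest share was 77.6%, and MYH1 had the largest mean share at slaughter.

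Most steps between neighbouring stages passed for the mean shares. The libraries of neighbouring stages still overlapped in each share, except that of MYH1 between fetus and birth. From fetus to birth the share of MYH7 fell by 41.9 percentage points, while MYH2 rose by 15.5 and MYH1 by 26.3, each with a permutation p of 1e-05, the smallest possible, and 1.12e-05 after adjustment over 9 tests. From birth to slaughter MYH7 fell by 28.7 points and MYH1 rose by 24.5, with the same p-values. MYH2 differed by 4.24 points between birth and slaughter with a permutation p of 0.159, which did not pass. A different measure, the log2 ratio of MYH2 to MYH7 counts, rose by 1.51 from birth to slaughter, with an adjusted permutation p of 0.000439. MYH7 also rose in level over this step (log2 change 0.92), by less than MYH2 (1.96) and MYH1 (2.64). The ratio leaves MYH1 out, so it does not show a rise of the MYH2 share. The log2 ratio of MYH1 to MYH2 rose by 4.96 from fetus to birth (adjusted p of 1.29e-05 by permutation) and by 0.73 from birth to slaughter (adjusted p of 0.00166 by permutation). The 3 shares of a library are parts of 1 whole and are not independent of each other.

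**Figure D2:**
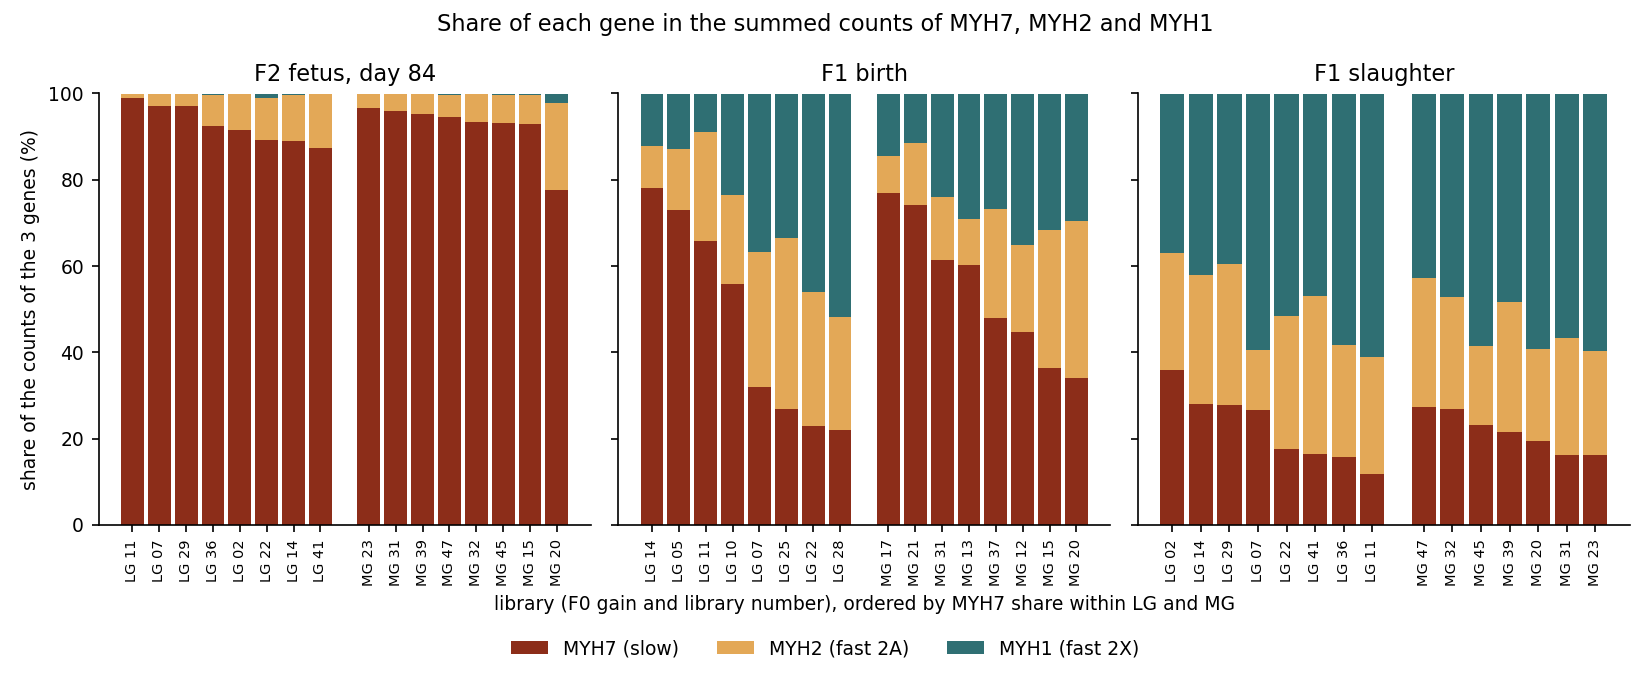
Share of MYH7 (dark red), MYH2 (ochre) and MYH1 (teal) in the summed counts of the 3 genes, in percent, with 1 bar per library, grouped by stage and ordered by the MYH7 share within LG and MG. Fetal bars are almost wholly MYH7 (77.6% to 98.9%), birth bars run from 78.2% down to 22.1% MYH7, and MYH1 takes 36.9% to 61.2% at slaughter.

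Newborn libraries differed widely from each other in the mix. The MYH7 share at birth ran from 22.1% in LG 28 to 78.2% in LG 14, both within the LG group. In LG 28 MYH1 held 51.9% of the 3, about the mean at slaughter, while in LG 11 it held 9.03%. From the lowest to the highest newborn library the level of MYH7 spanned 2.49-fold, that of MYH2 14.1-fold and that of MYH1 17.8-fold. Within LG and MG groups the SD of log2 CPM at birth was 0.32 for MYH7, 1.36 for MYH2 and 1.48 for MYH1, and the median over 12485 genes was 0.32. A larger SD than that of MYH2 was found for 46 genes and than that of MYH1 for 26. By slaughter the SDs were 0.44 for MYH7, 0.41 for MYH2 and 0.33 for MYH1, against a median of 0.32. Fetal SDs were 1.40, 1.36 and 2.06 in the same order, with a median of 0.57 over 14200 genes, and for MYH1 these include libraries with a few reads.

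The change in spread was tested on each library's distance from the median of its own LG or MG group. That measure was chosen after seeing the data, and 9 comparisons were made. The mean distance of MYH2 was 1.17 at birth and 0.27 at slaughter, and that of MYH1 1.21 and 0.27, both with an adjusted permutation p of 4.5e-05. For MYH7 it was 0.21 at birth and 0.36 at slaughter, with an adjusted permutation p of 0.0962. MYH7 varied less at birth than in fetuses, where the mean distance was 1.04 (adjusted permutation p of 0.00045). MYH2 and MYH1 did not pass between fetus and birth, with mean distances of 1.09 and 1.61 in fetuses and adjusted permutation p-values of 0.759 and 0.361.

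The fast chains moved together between libraries at the earlier stages. Over 16 newborn libraries the log2 CPM of MYH2 and MYH1 had a Pearson r of 0.883 and a Spearman rho of 0.877, both with a permutation p of 2e-05, or 9e-05 adjusted over 9 relations. The r was 0.919 within LG, 0.879 within MG and 0.852 without the 2 libraries farthest from the median of MYH2. In 16 fetuses r was 0.965 and rho 0.900 (permutation p of 1e-05 and 2e-05, adjusted 9e-05 for both), with r of 0.942 without the 2 farthest libraries and 0.949 without MG 20. At slaughter (n = 15) r was -0.06 and rho 0.04, with permutation p-values of 0.838 and 0.881, the same after adjustment. Whether the relation itself differed between stages was not tested, and MYH2 and MYH1 spanned a narrower range at slaughter. Depth at birth moved in the same direction as MYH1, with r of 0.595 between log2 total count and log2 CPM (adjusted permutation p of 0.133 over 27 relations), and its part in the relation was not tested.

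MYH7 followed the fast chains less closely. In fetuses its r was 0.680 with MYH2 and 0.684 with MYH1, with permutation p-values of 0.00359 and 0.00358, both 0.00808 adjusted. Its rho was 0.771 and 0.768 (adjusted permutation p of 0.00193 for both), and r without the 2 farthest libraries was 0.773 and 0.739. At birth both values of r were 0.365 (permutation p of 0.167 and 0.166, adjusted 0.215), rho was 0.294 and 0.391, and r was 0.155 and 0.158 without the 2 farthest libraries. At slaughter r was -0.06 and rho -0.15 with MYH2 (adjusted permutation p of 0.838 and 0.657). With MYH1 r was -0.47 and rho -0.46 (permutation p of 0.0802 and 0.0826, adjusted 0.144 and 0.149). Within groups at slaughter, r of MYH7 with MYH1 was -0.74 in LG (n = 8) and 7.37e-05 in MG (n = 7), a difference that was not tested.

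**Figure D3:**
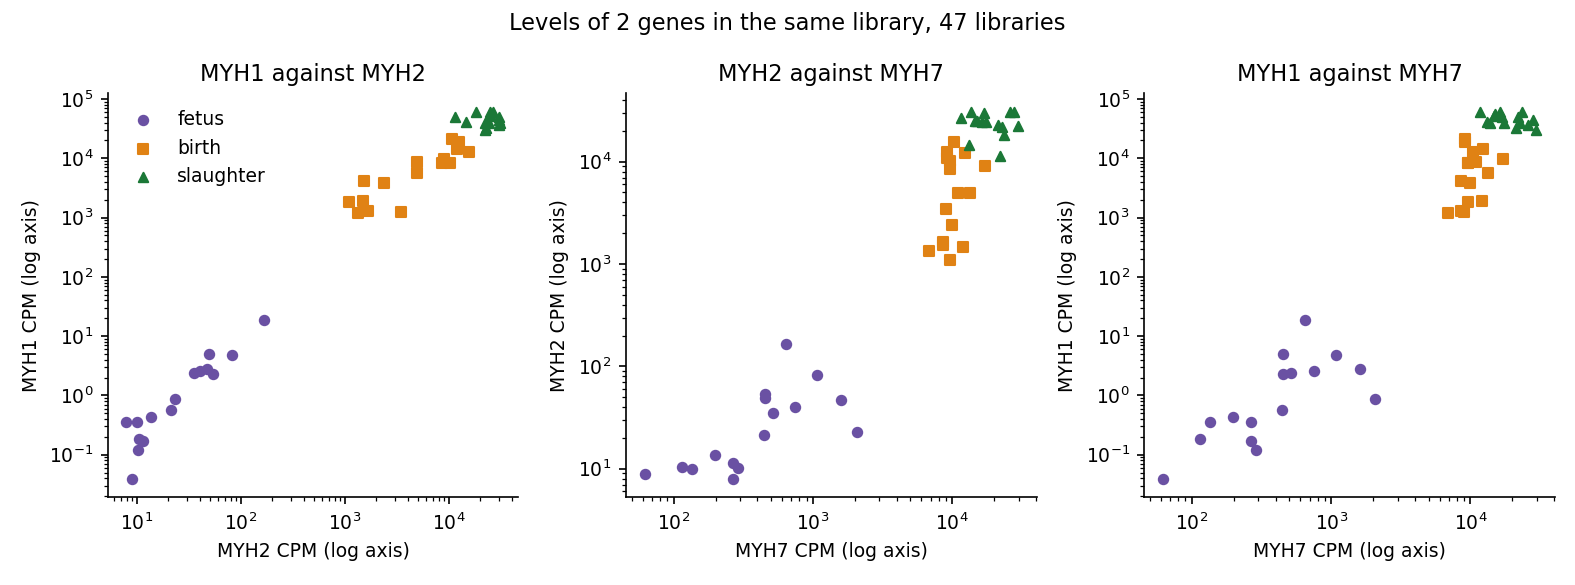
Level of 2 of the genes in the same library, in CPM on log axes, over 47 libraries: MYH1 against MYH2, MYH2 against MYH7 and MYH1 against MYH7, with fetuses as circles, birth as squares and slaughter as triangles. MYH1 climbs with MYH2 among fetuses (r 0.965) and newborns (r 0.883) but not at slaughter (r -0.06), and the newborn squares form a near-vertical band against MYH7.

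The main question of the design was whether the gain of the F0 heifers left a difference in offspring muscle. None of the 3 genes passed the test between LG and MG at any stage. The background was 0% at each stage, as edgeR's quasi-likelihood test called 0 of 14200 genes in fetuses, 0 of 12485 at birth and 0 of 12577 at slaughter. Before adjustment, p was under 0.05 for 102, 515 and 230 genes in that order. Each count is below a 0.05 share of the genes tested, which p-values give on average where no gene differs. DESeq2 also called 0 at each stage, with 215, 547 and 253 genes before adjustment, again below that share. Limma voom with sample weights called 0, with 2798, 669 and 365. Its counts in fetuses and at birth exceed that share, the fetal one by far. Why the methods differ was not tested.

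In newborns MYH7 was 10264 ± 2139 CPM in LG (n = 8) and 10481 ± 2782 in MG (n = 8). The fast chains had higher means in LG, with 7733 ± 5545 against 4916 ± 3791 CPM for MYH2 and 9612 ± 8164 against 5741 ± 3322 CPM for MYH1. The ranges overlapped for each gene, as LG held both the lowest MYH1 library (LG 05, 1201 CPM) and the highest (LG 28, 21421 CPM). The log2 difference, LG minus MG, was -0.04 (95% interval -0.37 to 0.30) for MYH7, 0.64 (-0.57 to 1.86) for MYH2 and 0.73 (-0.55 to 2.02) for MYH1. Under limma voom with sample weights that of MYH1 was -0.0352, so its direction turned with the method. Adjusted p-values in edgeR were 0.993, 0.985 and 0.985. At birth the interval for MYH7 thus spans 0.774-fold to 1.23-fold, and that for MYH1 spans 0.684-fold to 4.05-fold.

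At slaughter the group means lay within the spread between libraries. MYH7 was at 19505 ± 6239 CPM in LG (n = 8) and 19380 ± 5390 in MG (n = 7), MYH2 at 24893 ± 6374 and 22780 ± 5066, and MYH1 at 44253 ± 11169 and 47733 ± 9250. Ranges overlapped for each. The log2 differences were 0.02 (-0.42 to 0.45), 0.14 (-0.28 to 0.55) and -0.10 (-0.44 to 0.24) in that order, all with an adjusted p of 0.9998 in edgeR.

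In fetuses, whose granddams were treated, MYH7 ran from 62.1 to 2062 CPM in LG with a median of 451, and from 135 to 748 in MG with a median of 366. LG held the lowest fetal library for MYH7 and also the 3 highest. MYH2 had medians of 35.0 CPM in LG and 17.5 in MG, and MYH1 medians of 1.59 and 0.502. The log2 differences from the fit were 0.87 (-0.37 to 2.11) for MYH7, -0.24 (-1.65 to 1.17) for MYH2 and -0.80 (-2.95 to 1.35) for MYH1. For both fast chains the median was higher in LG while the fitted difference was negative. That sign rested on MG 20, the highest fetal library for MYH2 and MYH1: without it the differences were 0.85 for MYH2 and 1.13 for MYH1, and neither passed.

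**Figure D4:**
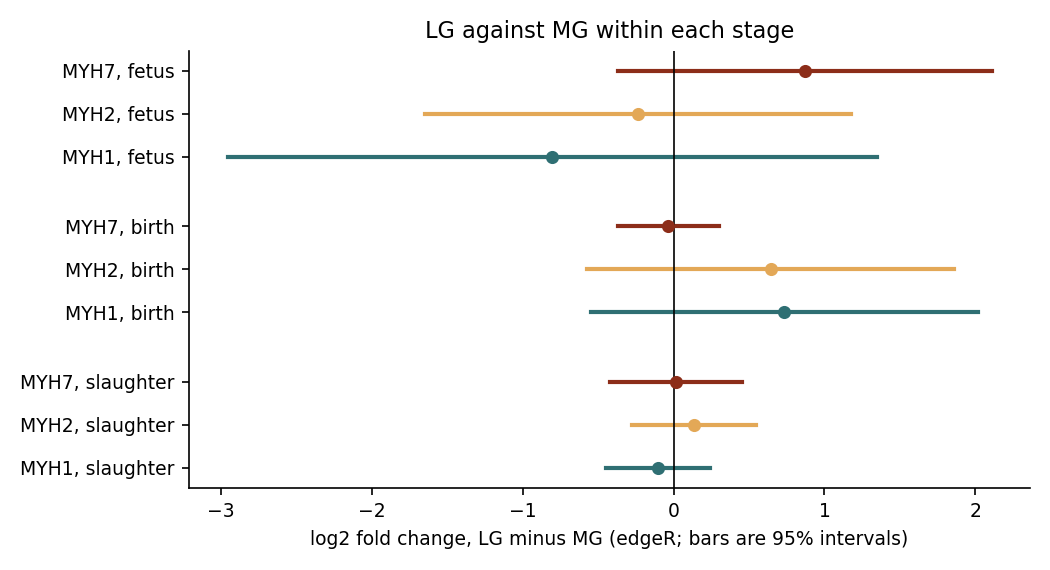
Log2 fold change of LG against MG for MYH7 (dark red), MYH2 (ochre) and MYH1 (teal) within each stage; points are edgeR estimates and bars 95% intervals, with 0 as the vertical line. Every interval crosses 0, and the intervals are narrowest for MYH7 at birth and for all 3 genes at slaughter and widest for MYH1 in fetuses (-2.95 to 1.35).

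No share passed between LG and MG. The MYH7 share was 47.05% ± 23.7 in LG and 54.4% ± 16.3 in MG at birth (n = 8 each), with an exact permutation p of 0.470. It was 22.5% ± 8.25 in LG (n = 8) and 21.5% ± 4.63 in MG (n = 7) at slaughter, with an exact permutation p of 0.787. Fetal values were 92.8% ± 4.32 and 92.4% ± 6.13 (n = 8 each), with an exact permutation p of 0.909. After adjustment over 9 exact permutation tests, every LG and MG comparison of a share had a p of 0.939. The summed percent of counts was 2.24 ± 1.03 in LG and 1.78 ± 0.686 in MG at birth, with an adjusted exact permutation p of 0.450 over 3 stages.

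Whether the LG effect differed between stages was tested as an interaction over all 47 libraries, where edgeR called 0 of 15264 genes in each of 3 contrasts. The difference of the LG effect between birth and fetus was -0.94 (SE 0.55) for MYH7, 0.78 (SE 0.75) for MYH2 and 1.40 (SE 0.95) for MYH1 on the log2 scale. The sign for the fast chains rested on fetal MG 20, as the values without it were -0.15 and -0.36, and it also turned under limma voom with sample weights (-0.80 and -2.19). Between slaughter and birth it was 0.04 (SE 0.56), -0.53 (SE 0.76) and -0.85 (SE 0.93). No member passed in either contrast or between slaughter and fetus in edgeR. The intervals are wide, and DESeq2 called 2, 2 and 1 genes in the 3 contrasts.

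Genes whose library-to-library pattern was most like that of a member are given by identifier, since the files do not pair identifiers with names. Likeness is Pearson's r of log2 CPM after subtracting group means, over the 31 F1 libraries and 7517 genes. For MYH7 the closest were ENSBTAG00000018369 (r 0.863) and ENSBTAG00000033217 (r 0.842). For MYH2 they were ENSBTAG00000012885 (r 0.892) and ENSBTAG00000052709 (r 0.877), and for MYH1 ENSBTAG00000009906 (r 0.925) and ENSBTAG00000001564 (r 0.898). MYH1 took place 15 among the genes most like MYH2, with r of 0.832, and MYH2 took place 27 for MYH1. MYH7 stood far down both lists, at places 1704 and 2228. The 2 F1 stages differed for the fast pair. In newborn libraries alone r was 0.889, with places 24 and 28 in the same order. At slaughter alone r was -0.03, with places 2743 and 4679. Over the 16 fetal libraries the closest to MYH7 were ENSBTAG00000027444 (r 0.937) and ENSBTAG00000006686 (r 0.930), and the closest to MYH2 were ENSBTAG00000009702 (r 0.970) and ENSBTAG00000010741 (r 0.965). The gene most like MYH1 in fetuses was MYH2 itself (r 0.965), followed by ENSBTAG00000009702 (r 0.962).

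All 15 library numbers at slaughter recur among the fetuses, 7 numbers recur between birth and fetus, and 6 between slaughter and birth. Shared numbers keep the same LG or MG label, though the labels do not say what a shared number means. The main stage fits did not use the numbers. No relation between libraries of 1 number passed after adjustment, over 9 relations of shares and 9 of log2 CPM. The share of MYH7 had r of 0.00911 and rho of 0.0286 over the 6 numbers found at birth and slaughter (exact permutation p of 0.985 and 1, adjusted 0.995 and 1), and r was -0.88 without the 2 farthest from the median. The log2 CPM of MYH7 had r of 0.877 and rho of 0.829 over the same 6 (exact permutation p of 0.0347 and 0.0583, adjusted 0.312 and 0.525). That r was 0.226 without the 2 farthest libraries. With library totals alone in place of TMM it was 0.677 (exact permutation p of 0.133, adjusted 0.985), and 0.910 without the 2 farthest, so over 6 libraries the value moved with the scaling and with the libraries kept.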

How the data were processed

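The authors deposited whole-number read counts per gene in 3 tables, 1 per stage, and every column was used. The tools named in the submitters' processing notes are STAR 2.7.3a, edgeR 3.24.3, FastQC 0.11.8 and MultiQC 1.9. How reads were counted, and on which build and annotation, is not given in the sources used here. The library kit did not mark strand, per the labels' protocols, so reads of genes that overlap on opposite strands cannot be told apart.

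The members, lists and tests were chosen with earlier results of these data known. Counts were fitted in R 4.3.3 with edgeR 4.0.16 (filterByExpr, TMM, robust quasi-likelihood test, Benjamini-Hochberg adjustment over all genes, threshold 0.05), on 1 stage for LG against MG and on both stages for a stage comparison. All 3 members passed the filter in each fit. DESeq2 1.42.0 and limma 3.58.1 were alternatives. Shares, sums and correlations were tested by permutation in Python 3.11.15, with ranks from SciPy 1.17.1. The tests were exact for LG against MG and for the 6 or 7 library numbers shared with birth. Otherwise 100000 resamples were used. Log2 CPM used a prior count of 2. The labels do not name separate animals, so each p-value measures spread between libraries, which may be technical. Genes named were the 3 members and, per member, the 2 identifiers with the highest r among those with mean log2 CPM of 3 or more, besides the rows near MYH1 and MYH2 in the closing section, chosen for their place in the table after their values were seen. The fixed lists of fibre type, regulator and cell type genes were not run, because the reference table paired a symbol with 0 identifiers.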

Additional observations from a re-analysis of the deposited data

Results flagged for a closer look

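A library was marked when its gap to the nearest other library of its group took up more of the group's range than Dixon's critical value allows. Of 36 sets of values examined (the CPM and share of 3 genes in 6 groups), 9 held such a library. Chance alone marks about 1 in 20 sets of normally distributed values. CPM and shares here are skewed, most of all in fetuses, and the rate for such values was not measured. Sets from 1 library are not independent, and 5 of the 9 came from fetal MG 20.

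Fetal MG 20 had 167 CPM of MYH2 against a group median of 17.5, and 19.04 CPM of MYH1 against 0.502. The fast chains held more of the 3 in this library than in any other fetus, at 20.1% for MYH2 and 2.29% for MYH1, which left 77.6% for MYH7. Its MYH7 level, 645 CPM, was within the range of the other fetuses. In fetal LG 22 the share of MYH1 was 0.994%, against a group median of 0.158%.

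In the F1 heifers, birth MG 37 had 17103 CPM of MYH7, and the next highest MG library had 10927. At slaughter, LG 07 had 11484 CPM of MYH2 where the next lowest LG library had 22363, and MYH2 held 13.9% of its 3 genes against a group median of 28.5%. Its MYH7 and MYH1 levels, 22054 and 49238 CPM, were within the range of the other libraries at slaughter.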

How the results depend on the processing

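All stage changes of the 3 genes kept direction and call under every alternative run, with log2 changes of 3.31 to 4.74 (MYH7), 6.37 to 7.80 (MYH2) and 10.44 to 12.95 (MYH1) for birth against fetus, and 0.63 to 0.96, 1.61 to 2.41 and 2.22 to 3.09 for slaughter against birth. The MYH2 share did not pass between slaughter and birth, while the log2 ratio of MYH2 to MYH7, a different measure, did (1.51).

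Libraries of 1 number deviated together with r over 0.1 in 3 of 7, 2 of 6 and 6 of 15 pairs. The order is birth with fetus, slaughter with birth, and slaughter with fetus. The median r was 0.056, 0.071 and 0.064, and the lowest -0.26, 0.02 and -0.31. Among the shared numbers, a library was most like that of its own number in 2, 3 and 1 cases. These values cannot decide what a number marks, since libraries of 1 animal at different stages need not deviate together. With the library number as a replicate block, slaughter against birth gave 0.63, 1.98 and 3.09 for MYH7, MYH2 and MYH1 (adjusted p for MYH2 0.0360) and 6796 genes called, against 6723 in the same libraries without the block, a fit added after seeing the data. For slaughter against fetus the block gave 5.51, 9.91 and 15.21 in the same order, against 5.04, 9.26 and 13.95 without it. The replicate block ended no call.

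No LG and MG result of the 3 genes passed under any alternative, but signs turned; the cause was not tested. Under limma voom with sample weights the difference was 1.26 for MYH2 and 2.19 for MYH1 in fetuses, 0.0013 for MYH7 and -0.0352 for MYH1 at birth, and -0.10 for MYH7 at slaughter. The interactions were then -0.80 and -2.19 (MYH2 and MYH1, birth against fetus), -0.0929 (MYH7, slaughter against birth), and -1.09 and -2.34 (MYH2 and MYH1, slaughter against fetus). LG minus MG, the log2 ratio of MYH7 to MYH2 differed by -0.11 at slaughter and that of MYH1 to MYH2 by -0.33 at birth, against share differences of the other sign. Genes called were 2 in fetuses from 1 model over all libraries, and 2, 2 and 1 for the interactions in DESeq2. With library totals alone, r at slaughter was 0.115 (MYH2, MYH1) and 0.0687 (MYH7, MYH2), and -0.00902 for MYH1 in same-numbered libraries of slaughter and birth.

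Each library was left out in turn, but for the interactions only birth MG 17, slaughter MG 47 and fetal MG 20 and LG 41, and for the fetal correlations only MG 20 (added after seeing the data). This turned signs and ended or made no call of the 3 genes. Fetal differences ran from -0.64 to 0.85 (MYH2) and -1.23 to 1.13 (MYH1), positive only without MG 20. Over those 4 libraries the interactions with fetuses ran from -0.15 to 0.78 and -0.68 to 0.34 (MYH2, against birth and slaughter), and -0.36 to 1.40 and -1.21 to 0.55 (MYH1). MYH7 ran from -0.10 to 0.10 at birth, turning without LG 05 or MG 37, and from -0.0865 to 0.12 at slaughter, turning without LG 02, 14 or 29 or MG 20, 23, 31 or 39. LG minus MG shares ran from -1.74 to 1.16 (MYH7), -1.03 to 1.64 (MYH2) and -0.27 to 0.0942 (MYH1) points in fetuses, -0.41 to 5.71 (MYH1, turning without LG 28) at birth, and -0.96 to 2.50 (MYH7, turning without LG 02) at slaughter. Fetal shares turned without MG 20 and, for MYH7 and MYH2, without LG 07, 11 or 29. Sums at slaughter ran from -4812 to 760 CPM (turning without LG 14 or MG 23, 45 or 47) and -0.466 to 0.0299 percent of counts (turning without LG 02 or 07 or MG 47).

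Shares per transcript length were not run, as no lengths were at hand, and the stricter filter left MYH1 out of the fetal fit. Fetal MYH1 rests on 1 to 577 counts, so its folds are the least precise.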

Other observations

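Of the 4 other rows within 2 places of MYH1 or MYH2 in the fetal table, 2 had falling means over the stages where the members had rising ones. ENSBTAG00000009702, 2 rows before MYH1, had 435 ± 434 CPM in fetuses (n = 16), 5.79 ± 9.26 at birth (n = 16) and 0.618 ± 1.16 at slaughter (n = 15). ENSBTAG00000011803, next after MYH2, had 1701 ± 1234, 18.0 ± 18.8 and 2.71 ± 1.09 CPM. ENSBTAG00000037794, between the first of these and MYH1, stayed low at 0.0428 ± 0.0748, 0.532 ± 0.524 and 2.52 ± 0.770 CPM. ENSBTAG00000021780, the second row after MYH2, had 20.2 ± 6.06, 30.3 ± 3.32 and 28.2 ± 3.77 CPM. The files do not pair these identifiers with names, and they were picked for their place in the table. Among fetuses ENSBTAG00000009702 was also the identifier whose pattern between libraries was most like that of MYH2 (r 0.970), although its level over the stages went the other way.

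Of 27 relations between the level of a member and a measure of the library (total count, genes detected, or genes holding the first 50% of counts), none passed after adjustment. The closest were 2 relations, each with an adjusted permutation p of 0.120. MYH7 with genes detected in fetuses had r of 0.628, or 0.288 without the 2 farthest libraries. MYH2 with the genes holding 50% of counts at birth had r of -0.54, or -0.25 without the 2 farthest libraries. That measure is not independent of MYH2, which was at place 37 by mean level at birth. The first 50% of counts there took a median of 77 genes, so more MYH2 can by itself lower the number.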
